A study of Mus musculus with 8 samples.

Results

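Hspa5, Hsp90b1, Calr, Canx, Pdia3, Pdia4, Pdia6, Dnajb9, Sdf2l1 and Ero1l encode chaperones and disulfide isomerases of the endoplasmic reticulum (ER). They were taken as the genes of the deposited count table with these symbols, and all 10 were found among its 14012 genes. RNA sequencing had been done on quadriceps femoris (QF), a large thigh muscle, of 8 mice with 1 library each. The 4 libraries labelled knockout came from Grpel1 skm-/- mice, in which the floxed Grpel1 gene is removed by a Cre recombinase that is driven by the human skeletal actin promoter and switched on by tamoxifen. The 4 control libraries came from Grpel1 flox/flox mice, whose floxed alleles the knockout mice share. The Cre acts in myofibres, so the other cells of the muscle keep the gene. The labels list no treatment for either group, and the study calls its floxed littermates untreated where it follows body weight. Its weight curves also hold floxed mice that had tamoxifen but no Cre, floxed Cre mice without the drug, and wild-type Cre mice given it. Whether the control mice of these libraries were given tamoxifen or carried the Cre is not said. An effect of the drug or of the Cre and one of the gene therefore cannot be told apart. The mice of the study were young males, and the knockout mice received tamoxifen in the weeks after weaning and were followed for some weeks from then. The line came from embryonic stem cells injected into C57BL/6NCrl blastocysts, with no further background given. An age for each library is not given in the sources used here. GRPEL1 is the nucleotide exchange factor of mitochondrial Hsp70 and is needed for protein import into mitochondria.

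Libraries held 16017565 to 20361144 counts. The normalization factors by trimmed mean of M values (TMM) were 0.747 to 0.844 in the control libraries and 1.19 to 1.33 in the libraries labelled knockout. Grpel1 counted over the whole gene does not check the labels: it was at 64.1 to 71.2 counts per 1000000 counts of the library (CPM) in the control libraries and at 59.9 to 71.9 CPM in the others, with a log2 fold change of -0.07 (SE 0.078, adjusted p = 0.49). The 4 libraries are therefore called the libraries labelled knockout, or knockout 1 to 4. CPM and fold changes below are relative to TMM-scaled library sizes, and a gene was called at an adjusted p under 0.01 in edgeR's quasi-likelihood test across all genes.

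The ER is where secreted and membrane proteins fold. Hspa5 (BiP), its Hsp70, holds unfolded chains and works with J proteins such as Dnajb9 and with Sdf2l1, and Hsp90b1 (GRP94) is its Hsp90. Calr and Canx are lectin chaperones that bind glycoproteins through their sugars, Pdia3, Pdia4 and Pdia6 make and rearrange disulfide bonds, and Ero1l supplies the oxidizing power for this. In muscle fibres a specialised part of the same membrane system, the sarcoplasmic reticulum, stores the calcium that drives contraction. When unfolded proteins build up, ER stress sensors raise the transcription of many of these genes, in part through the ER stress response element (ERSE) in their promoters.

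The promoter sequences of 7 members are shown because they carry the ERSE or, for the 2 members with the largest changes, lack it. All 10 members matched the RefSeq promoter table (assembly GRCm38.p6, Ero1l under its newer symbol Ero1a). Each sequence is the 250 bases before the annotated start, read 5′ to 3′ on the strand of the gene, and capitals mark each match to the ERSE, CCAAT and CCACG with 9 bases of any kind between them, searched on both strands. The windows lie at chr2:34771840-34772089 (plus strand) for Hspa5, chr10:86705445-86705694 (minus) for Hsp90b1, chr8:84846932-84847181 (minus) for Calr, chr11:50325674-50325923 (minus) for Canx, chr12:17266339-17266588 (plus) for Pdia6, chr16:17132384-17132633 (minus) for Sdf2l1 and chr14:45318573-45318822 (minus) for Ero1l.
Hspa5: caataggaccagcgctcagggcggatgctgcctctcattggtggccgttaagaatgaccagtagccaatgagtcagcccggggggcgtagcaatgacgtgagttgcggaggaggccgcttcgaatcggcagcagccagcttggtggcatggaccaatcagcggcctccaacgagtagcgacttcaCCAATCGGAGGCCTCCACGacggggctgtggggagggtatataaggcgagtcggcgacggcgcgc
Hsp90b1: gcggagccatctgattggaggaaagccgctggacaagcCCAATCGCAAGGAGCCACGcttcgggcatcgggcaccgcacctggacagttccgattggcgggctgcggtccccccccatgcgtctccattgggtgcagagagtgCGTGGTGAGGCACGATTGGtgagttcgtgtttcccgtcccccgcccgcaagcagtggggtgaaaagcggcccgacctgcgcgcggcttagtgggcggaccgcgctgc
Calr: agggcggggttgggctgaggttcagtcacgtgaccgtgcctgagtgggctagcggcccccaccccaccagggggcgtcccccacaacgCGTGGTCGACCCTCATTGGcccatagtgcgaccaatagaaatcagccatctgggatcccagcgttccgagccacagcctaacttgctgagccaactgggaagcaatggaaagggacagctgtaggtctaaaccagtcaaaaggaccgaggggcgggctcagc
Canx: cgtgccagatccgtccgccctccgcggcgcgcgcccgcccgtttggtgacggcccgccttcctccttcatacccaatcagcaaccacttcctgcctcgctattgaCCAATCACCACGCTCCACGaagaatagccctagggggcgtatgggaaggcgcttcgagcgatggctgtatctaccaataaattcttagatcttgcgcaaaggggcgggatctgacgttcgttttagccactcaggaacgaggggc
Pdia6: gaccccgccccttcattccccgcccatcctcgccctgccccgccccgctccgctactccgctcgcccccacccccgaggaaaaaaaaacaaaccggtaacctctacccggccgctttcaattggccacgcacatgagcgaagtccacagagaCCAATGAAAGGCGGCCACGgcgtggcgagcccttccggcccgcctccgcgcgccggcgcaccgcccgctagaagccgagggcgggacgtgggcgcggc
Sdf2l1: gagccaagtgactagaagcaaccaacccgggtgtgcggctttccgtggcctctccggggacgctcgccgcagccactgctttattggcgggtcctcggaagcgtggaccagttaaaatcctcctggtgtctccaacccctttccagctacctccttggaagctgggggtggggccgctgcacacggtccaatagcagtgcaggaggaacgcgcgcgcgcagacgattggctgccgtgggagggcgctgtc
Ero1l: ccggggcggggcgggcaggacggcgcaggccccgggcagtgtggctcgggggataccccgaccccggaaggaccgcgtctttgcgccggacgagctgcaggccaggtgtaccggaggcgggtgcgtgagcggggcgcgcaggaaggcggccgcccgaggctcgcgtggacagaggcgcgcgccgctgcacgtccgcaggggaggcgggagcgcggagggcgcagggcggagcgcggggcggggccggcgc

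The ERSE was present in 5 of the 10 members. In all, 37 of 32851 RefSeq promoters of this length held it (0.113%). Because this element is known from genes of this kind, as given above, the comparison is a description and not a test. In Hspa5 it spanned bases 65 to 47 before the start, in Canx bases 145 to 127 and in Pdia6 bases 98 to 80. Hsp90b1 had 2 matches, at bases 212 to 194 and, on the opposite strand, at bases 107 to 89, and Calr had 1 on the opposite strand at bases 162 to 144. The CCAAT letters of its 5′ end occurred in 9 of 10 members (33.9% of all promoters) and the CCACG letters of its 3′ end in 8 of 10 (28.3%), and every carrier of the ERSE counts for both. Among the 13612 promoters of genes measured here the shares were 34.3% for CCAAT, 40.2% for CCACG and 0.140% for the ERSE. Sdf2l1 and Dnajb9 had both sets of letters, but not at that distance. Pdia3 and Pdia4 had CCAAT without CCACG, and Ero1l had CCACG without CCAAT. ERSE-II (ATTGG and CCACG with 1 base between them, 0.0304% of all promoters) had no match in the 10 windows. The same held for the core of the unfolded protein response element (TGACGTGG, 0.563%) and the C/EBP-ATF response element (TGATGNAAN, 3.44%). Among promoters of genes measured here these shares were 0.0441%, 0.72% and 1.98%. Only these letters were searched: the Hspa5 window holds TGACGTGA, which differs from TGACGTGG in its last base. A match is a description of these letters and not a measured binding site.

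**Figure D1:**
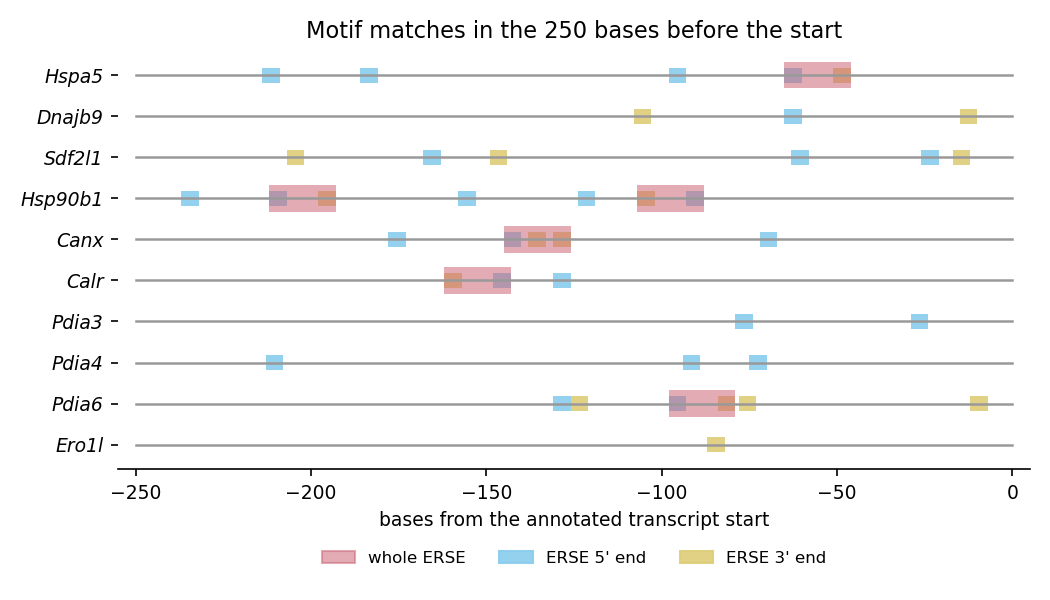
Matches to the ERSE and to its separate ends in the 250 bases before the annotated start of each member. The x axis is the distance from the start in bases and each line is 1 gene; Hspa5, Hsp90b1, Calr, Canx and Pdia6 hold the full element, with 2 in Hsp90b1.

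Of the 10 members, 9 were higher in the libraries labelled knockout, against 23.6% of all genes tested, and 0 were lower, against 21.1%. Pdia4 was the member that did not pass the test. Ero1l, Sdf2l1, Hspa5 and Canx rose by at least 2-fold, as 9.83% of all genes did, and Dnajb9, Pdia3, Pdia6, Hsp90b1 and Calr rose by less. In 9 members every library labelled knockout lay above every control library, which held for 29% of all genes, and in none did they all lie below, as in 24.4% of all genes. The median log2 fold change was 0.72 over the 10 members and 0.065 over all genes, whose quartiles were -0.40 and 0.54.

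**Figure D2:**
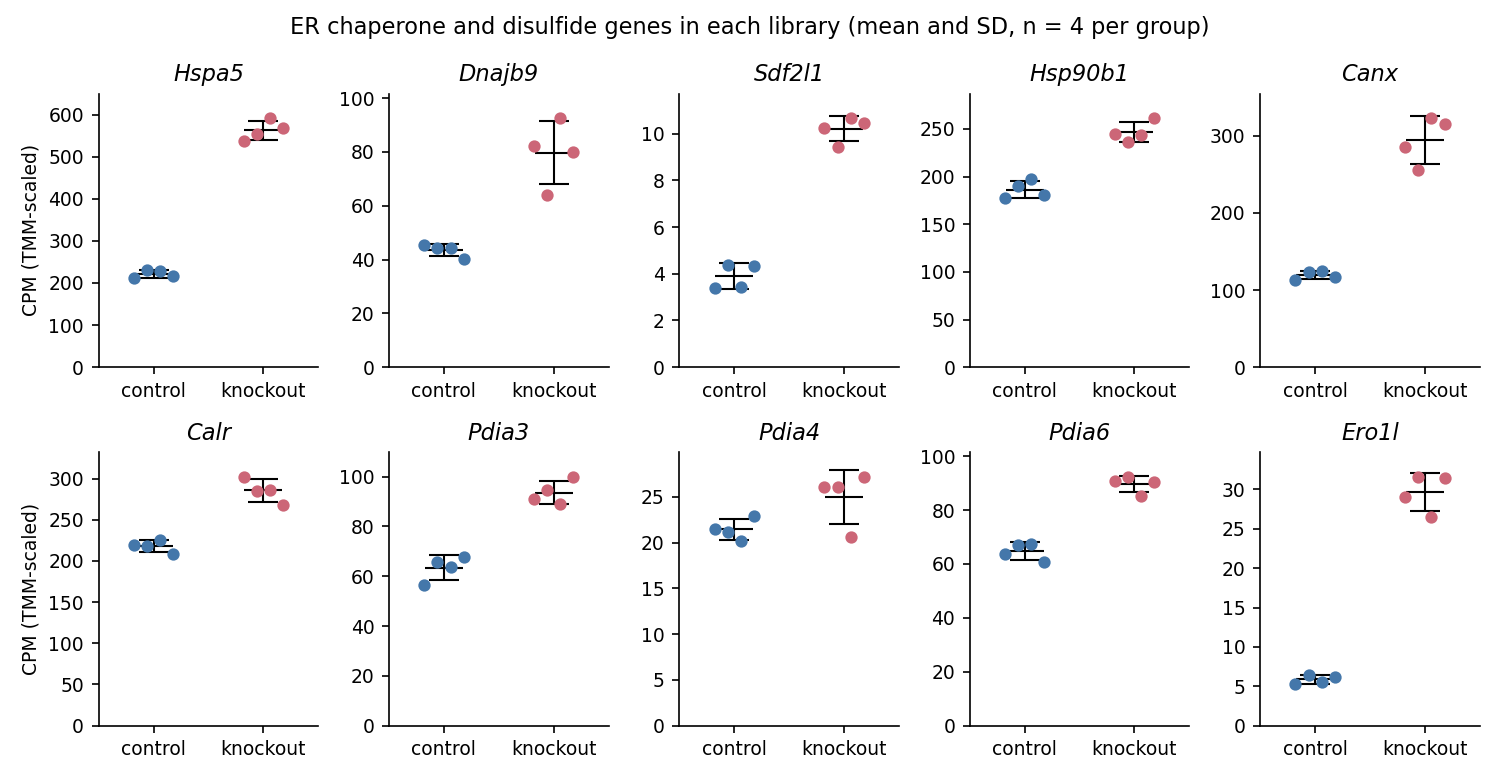
CPM of each member in each library, with a panel per gene, a linear y axis from 0, 1 point per library, and a line and whiskers for the mean and SD of each group (n = 4). The groups are apart in 9 panels, and in Pdia4 knockout 3 lies among the control libraries at 20.6 CPM.

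Hspa5 (chr2:34772090-34776529, plus strand, GRCm38) was the largest change among the abundant members. Its level was 213, 231, 227 and 216 CPM in control 1 to 4 and 537, 553, 591 and 569 CPM in knockout 1 to 4. The groups were far apart, the lowest library labelled knockout standing at 2.33 times the highest control library. The mean went from 222 ± 8.8 to 562 ± 22.97 CPM (SD, n = 4), with a log2 fold change of 1.34 (SE 0.069, adjusted p = 3.5e-07). Of all genes tested, 7.79% had a larger increase.

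Among the BiP partners, Sdf2l1 and Dnajb9 rose by different amounts. Sdf2l1 (chr16:17130138-17132383, minus strand), which keeps BiP cycling with its J proteins, had few reads, 42 to 69 counts in the control libraries and 206 to 263 in the others. These gave 3.39, 4.39, 3.44 and 4.35 CPM in control 1 to 4 and 10.3, 9.43, 10.7 and 10.5 CPM in knockout 1 to 4. The groups did not overlap, and the log2 fold change was 1.38 (SE 0.12, adjusted p = 8.6e-06). Dnajb9 (ERdj4, chr12:44205897-44210068, minus strand), a J protein that delivers clients to BiP, stood at 45.6, 44.1, 44.3 and 40.3 CPM in control 1 to 4 and at 82.1, 64.1, 92.5 and 80.1 CPM in knockout 1 to 4. Its groups were also apart, but knockout 2 was low and knockout 3 high, giving the widest relative spread of any member within the libraries labelled knockout (coefficient of variation 14.7%). The log2 fold change of Dnajb9 was 0.87 (SE 0.11, adjusted p = 6.4e-05).

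Hsp90b1 (chr10:86690841-86705444, minus strand), the ER Hsp90, rose far less than Hspa5. Its level was 177, 190.0, 197 and 180.3 CPM in control 1 to 4 and 245, 236, 244 and 261 CPM in knockout 1 to 4. All 4 libraries labelled knockout lay above the controls, by a narrow margin, and the log2 fold change was 0.40 (SE 0.067, adjusted p = 5.1e-04). Of all genes, 30.8% had a larger increase.

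The lectin chaperones, soluble Calr and membrane-bound Canx, are close relatives and moved by unequal amounts. Calr (chr8:84842088-84846931, minus strand) was at 219.7, 218, 226 and 208 CPM in control 1 to 4 and at 302, 286, 287 and 269 CPM in knockout 1 to 4. Canx (chr11:50293957-50325673, minus strand) was at 113, 124, 125 and 116 CPM in control 1 to 4 and at 285, 255, 322 and 315 CPM in knockout 1 to 4. Both were apart between the groups. The log2 fold change was 0.39 for Calr (SE 0.066, adjusted p = 5.7e-04) and 1.30 for Canx (SE 0.087, adjusted p = 1.4e-06).

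Of the disulfide isomerases, Pdia3 and Pdia6 rose and Pdia4 did not pass the test. Pdia3 (ERp57, chr2:121413902-121438687, plus strand), the isomerase that works with the lectin chaperones, was at 56.3, 65.6, 63.8 and 67.9 CPM in control 1 to 4 and at 91.0, 94.5, 89.1 and 99.9 CPM in knockout 1 to 4. Pdia6 (P5, chr12:17266595-17284770, plus strand) was at 63.7, 67.1, 67.6 and 60.7 CPM in control 1 to 4 and at 90.7, 92.3, 85.1 and 90.5 CPM in knockout 1 to 4. Both rose with no overlap between the groups, and the log2 fold changes were 0.56 for Pdia3 (SE 0.075, adjusted p = 1.2e-04) and 0.47 for Pdia6 (SE 0.063, adjusted p = 1.2e-04). Pdia4 (ERp72, chr6:47796141-47813512, minus strand) was at 21.5, 21.2, 20.2 and 22.9 CPM in control 1 to 4 and at 26.1, 26.1, 20.6 and 27.2 CPM in knockout 1 to 4. The other 3 libraries labelled knockout lay above every control library, and knockout 3 was among the controls. The log2 fold change was 0.22 (SE 0.096, adjusted p = 0.072), and without knockout 3 it was 0.27 (adjusted p = 0.017).

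Ero1l (chr14:45283087-45318572, minus strand), the oxidase that reoxidizes protein disulfide isomerase, had the largest change of the 10. Its reads numbered 65 to 99 in the control libraries and 641 to 792 in the others. This gave 5.25, 6.48, 5.51 and 6.24 CPM in control 1 to 4 and 29.1, 31.6, 26.5 and 31.5 CPM in knockout 1 to 4. The groups were far apart, with a log2 fold change of 2.33 (SE 0.10, adjusted p = 1.5e-07), and 2.71% of all genes had a larger increase.

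**Figure D3:**
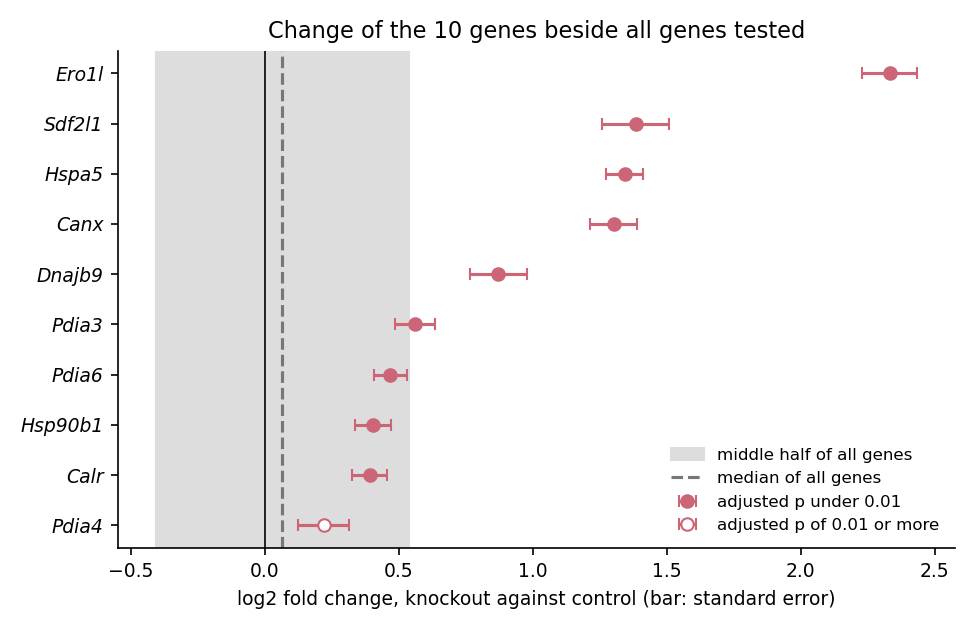
Log2 fold change of each member (libraries labelled knockout over control, edgeR) with its standard error as a bar, over a grey band between the quartiles of all 14012 genes. Filled points passed the test and the open point, Pdia4, did not. Ero1l stands at 2.33, Sdf2l1, Hspa5 and Canx between 1.30 and 1.38, Dnajb9 at 0.87 and the remaining 5 between 0.22 and 0.56.

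Members with and without the ERSE overlapped in their changes. The 5 members with it had log2 fold changes of 0.39 (Calr), 0.40 (Hsp90b1), 0.47 (Pdia6), 1.30 (Canx) and 1.34 (Hspa5). The 5 without it ran from 0.22 (Pdia4) to 2.33 (Ero1l). The sequences printed for Sdf2l1 and Ero1l, which rose by 1.38 and 2.33, hold no full element in this window.

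Levels of different genes were compared per length, as CPM divided by the exon length in kilobases (RPKM). In the control libraries the order from the highest was Calr at 112 ± 3.83 RPKM (SD, n = 4), Hspa5 at 84.7 ± 3.37, Hsp90b1 at 67.5 ± 3.30, Pdia6 at 30.5 ± 1.51, Canx at 27.8 ± 1.32, Pdia3 at 23.99 ± 1.89, Dnajb9 at 23.4 ± 1.23, Pdia4 at 8.65 ± 0.46, Sdf2l1 at 3.51 ± 0.50 and Ero1l at 1.33 ± 0.13. The ranges of Pdia6 and Canx overlapped, though Pdia6 was above Canx in each of the 4 control libraries. Those of Pdia3 and Dnajb9 overlapped as well, with Pdia3 the higher in 3 of the 4. In the libraries labelled knockout Hspa5 came first at 215 ± 8.78 RPKM, before Calr at 147 ± 7.06, Hsp90b1 at 89.3 ± 3.83, Canx at 68.7 ± 7.19, Dnajb9 at 42.7 ± 6.28, Pdia6 at 42.2 ± 1.48, Pdia3 at 35.4 ± 1.80, Pdia4 at 10.1 ± 1.19, Sdf2l1 at 9.20 ± 0.48 and Ero1l at 6.71 ± 0.55. Here the ranges of Dnajb9 and Pdia6, and of Pdia4 and Sdf2l1, overlapped. Hspa5 passed Calr in all 4 libraries labelled knockout, while Calr was above Hspa5 in all 4 controls.

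**Figure D4:**
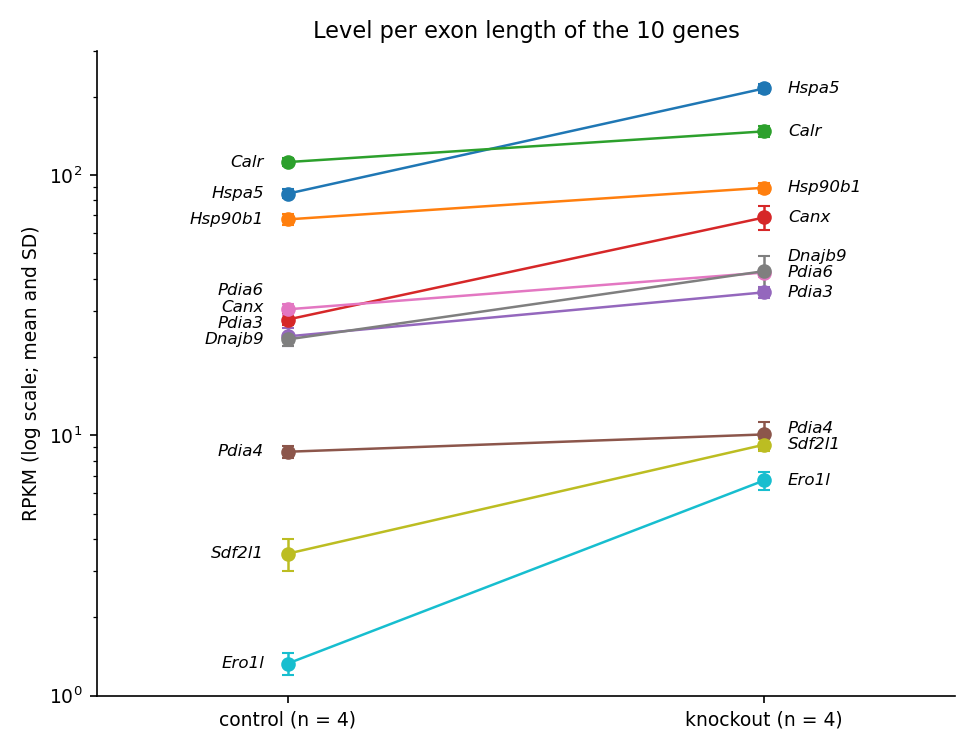
RPKM of each member on a log axis, as the mean and SD of the control libraries on the left and of the libraries labelled knockout on the right (n = 4 each), joined by a line per gene. Hspa5 goes from 84.7 to 215 RPKM and passes Calr, and Ero1l is lowest in both groups at 1.33 and 6.71 RPKM.

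The summed RPKM of the 10 genes went from 383 ± 12.2 to 666 ± 17.6, a ratio of 1.74. Within this sum the share of Hspa5 went from 22.1% to 32.3%, that of Canx from 7.26% to 10.3%, that of Sdf2l1 from 0.917% to 1.38% and that of Ero1l from 0.347% to 1.01%. The shares of Calr (29.2% to 22.1%), Hsp90b1 (17.6% to 13.4%), Pdia6 (7.95% to 6.34%), Pdia3 (6.26% to 5.32%) and Pdia4 (2.26% to 1.52%) were smaller. Each of these 9 shares was apart between the groups, with the smallest p that a two-sided exact permutation test of 4 against 4 can give (0.0286, adjusted over the 10 shares 0.0317). The shares of a library are parts of the same sum, so larger shares of some genes make others smaller. They are thus not separate results, and a smaller share is not a fall in level. The share of Dnajb9 was 6.09% and 6.40% (exact permutation p = 0.514).

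Ratios between members within a library barely depend on how libraries are scaled. Of the 45 pairs, 31 were apart between the groups (exact permutation p = 0.0286, the smallest the design allows, adjusted over 45 pairs 0.0415). The pairs share 10 genes, so they are not separate results. The share of pairs apart was not computed over all genes. Taken singly, 29% of all genes lay wholly above the controls and 24.4% wholly below. Seen by their values, and so as a description only, the members fell into Ero1l, a set of Sdf2l1, Hspa5 and Canx, a set of Pdia3, Pdia6, Hsp90b1, Calr and Pdia4, and Dnajb9 between the sets. All 15 pairs across these sets were apart, with log2 ratios that differed by 0.73 to 1.16 between the groups. Hspa5 over Hsp90b1 went from a log2 ratio of 0.25 to 1.19, a difference of 0.94, and Canx over Calr from -0.87 to 0.039, a difference of 0.91. Inside the first set none of 3 pairs was apart, with Hspa5 over Canx at 0.89 and 0.94 (difference 0.046, exact permutation p = 0.743). Inside the second, 1 of 10 was apart, Pdia3 over Pdia4, by 0.35. Ero1l was apart from each of the other 9, by 0.94 from Sdf2l1 to 2.10 from Pdia4. Dnajb9 was apart from Sdf2l1, Hspa5 and Canx (0.44 to 0.52) and from Hsp90b1, Calr and Pdia4, but not from Pdia3 (0.30, exact permutation p = 0.171) or Pdia6 (0.39, exact permutation p = 0.0571).

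**Figure D5:**
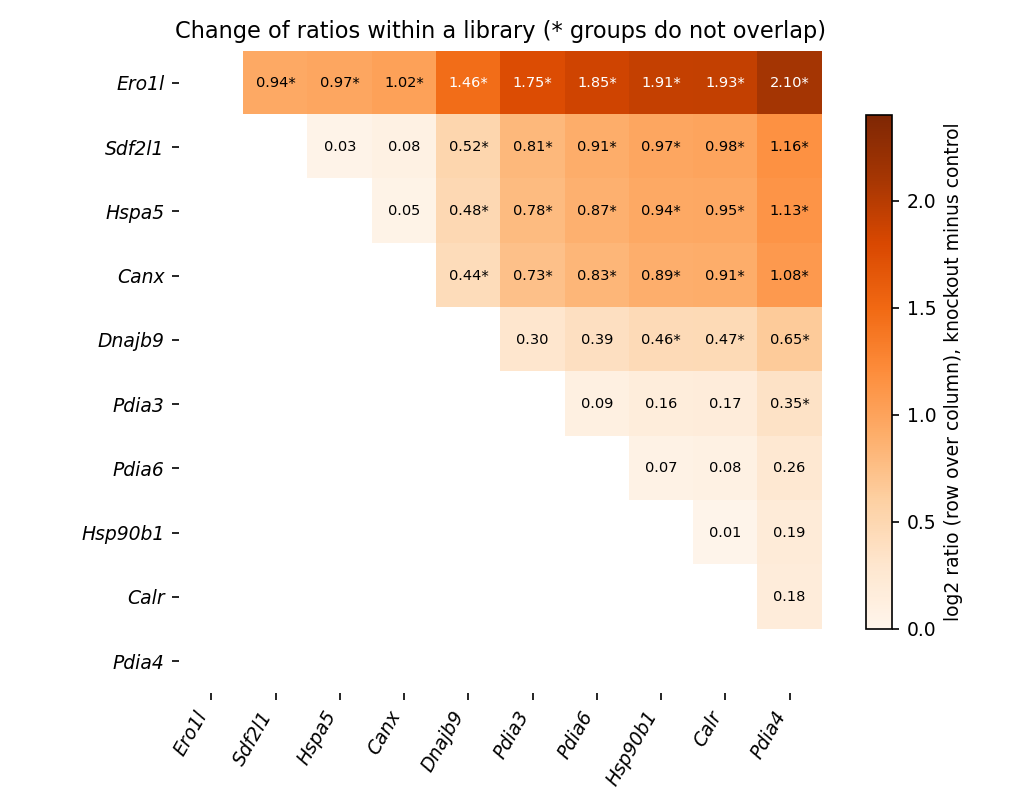
Difference between the groups in the within-library log2 ratio of each pair of members, the row gene over the column gene, with the members ordered by log2 fold change and a mark on the 31 pairs whose groups are apart. The pairs of Sdf2l1, Hspa5 and Canx with one another stay within 0.08, and those of Ero1l run from 0.94 to 2.10.

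No library labelled knockout was high or low for all members. Knockout 3 was the highest of its group for Hspa5, Canx, Dnajb9 and Sdf2l1 and the lowest for Pdia3, Pdia4, Pdia6 and Ero1l. Knockout 2 was the lowest for Hsp90b1, Canx, Dnajb9 and Sdf2l1. Among the control libraries, control 1 was the lowest for Hspa5, Hsp90b1, Canx, Pdia3, Sdf2l1 and Ero1l.

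Close relatives of the members, compared within libraries in 9 pairs, did not all move with them. In 5 of the 9 pairs the log2 ratio did not overlap between the groups, each with the smallest p the design allows (exact permutation p = 0.0286), which adjusted over the 9 pairs is 0.0514 and misses 0.05. For these pairs too, no share over all pairs of genes was computed. Ero1l and its paralog Ero1lb moved apart: Ero1lb was at 4.28 ± 0.78 CPM in the control libraries and at 3.53 ± 0.59 in the others (SD, n = 4), with a log2 fold change of -0.28 (SE 0.18, adjusted p = 0.22), and the log2 ratio of Ero1l over Ero1lb was 2.58 higher in the libraries labelled knockout. Sdf2, the paralog of Sdf2l1, fell from 48.6 ± 4.05 to 35.7 ± 1.77 CPM (log2 fold change -0.44, SE 0.075, adjusted p = 6.2e-04), so the ratio of Sdf2l1 over Sdf2 was 1.82 higher on the log2 scale. Hspa8, the constitutive Hsp70 of the cytosol, also fell, from 1346 ± 279 to 870 ± 51.3 CPM (log2 fold change -0.63, SE 0.15, adjusted p = 0.0044). Control 4, at 933 CPM, lay close to knockout 2 at 907 CPM. Hspa5 over Hspa8 was 1.95 higher. Hspa9, the mitochondrial Hsp70 that GRPEL1 serves, rose from 604 ± 37.8 to 1328 ± 104 CPM, and Hspa5 over Hspa9 differed by 0.21 (exact permutation p = 0.0571).

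Of the other isomerases paired with members, P4hb and Txndc5 rose and Pdia5 did not pass the test. P4hb, the founding protein disulfide isomerase, went from 174 ± 6.835 to 278 ± 17.04 CPM (log2 fold change 0.67, SE 0.070), and Pdia3 over P4hb differed by -0.11 (exact permutation p = 0.229). Txndc5, another ER disulfide isomerase, went from 48.1 ± 5.11 to 102 ± 5.93 CPM (log2 fold change 1.08, SE 0.087), and the log2 ratio of Pdia6 over Txndc5 differed by -0.62, with no overlap. Pdia4 over Pdia5 differed by 0.13 (exact permutation p = 0.543), where Pdia5 had 30 to 62 counts per library. Dnajb9 over Dnajb11, the ER J protein ERdj3, was 0.36 higher, with Dnajb11 itself up by 0.50 (SE 0.066), and Hsp90b1 over the cytosolic Hsp90ab1 differed by 0.17 (exact permutation p = 0.143).

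Across 117 further measured ER genes, which were listed by role in 8 of the 10 lists that follow, 45 rose and 18 fell, with a median log2 fold change of 0.22. These and the counts below are to be read against the 23.6% of all genes that rose and the 21.1% that fell, and small lists such as the BiP cofactors, the prolyl isomerases and ER entry lie near those shares in at least 1 direction. The lists were chosen with earlier results of these data known, so their counts describe and do not test them. Of 12 BiP cofactors 4 rose and 2 fell (median 0.16). Manf, a secreted factor that binds BiP, went from 18.4 ± 1.02 to 41.9 ± 2.03 CPM (log2 fold change 1.19, SE 0.069), and Hyou1, an exchange factor of BiP, from 40.5 ± 2.95 to 83.2 ± 3.33 CPM (log2 fold change 1.04, SE 0.071). Cdnf, the relative of Manf, fell from 83.3 ± 9.24 to 44.2 ± 5.30 CPM (log2 fold change -0.91, SE 0.11). Manf and Hyou1 thus rose beside Hspa5 while the relatives Cdnf and Sdf2 fell.

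Of the 23 other thioredoxin-fold proteins and oxidases measured, 10 rose and 5 fell (median 0.25). This count rests in part on single libraries, with 6 rising without knockout 4, and with 2 falling without control 3 and 3 falling without control 1, control 2, knockout 3 or knockout 4. Gpx8, an ER peroxidase, was at 8.24 ± 2.57 and 17.6 ± 5.68 CPM (log2 fold change 1.09, SE 0.27), with overlapping groups, and Txndc16 (-0.55, SE 0.098) and Tmx2 (-0.50, SE 0.13, groups overlapping) fell on the log2 scale. Of 9 measured genes of glycan trimming and the lectin cycle, which prepare glycoproteins for Calr and Canx, 4 rose and 1 fell, or 2 without knockout 2 (median 0.13). Mogs, the first glucosidase, and Man1b1, a mannosidase, rose with log2 fold changes of 0.68 (SE 0.10) and 0.28 (SE 0.062), and Mlec, a lectin of the early cycle, fell from 337 ± 56.5 to 201 ± 19.2 CPM (log2 fold change -0.74, SE 0.12). Calr4, a relative of Calr, passed the test with 1 to 4 counts per control library, at 0.169 ± 0.0763 and 0.548 ± 0.0492 CPM.

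Collagen folding went the other way from the members, with 0 rising and 5 falling of 11 measured (median -0.30). P4ha1, the catalytic prolyl hydroxylase subunit that partners with P4hb, fell from 105 ± 17.4 to 29.4 ± 1.98 CPM (log2 fold change -1.84, SE 0.12), and P4ha2 fell as well (log2 fold change -1.07, SE 0.096). P3h3 (-0.63, SE 0.15) and Plod1 (-0.55, SE 0.093), which hydroxylate collagen prolines and lysines, fell by less. Summed levels of fibroblast markers were lower too, as given below, and their part in this was not tested. Among 8 prolyl isomerases 2 rose, Fkbp2 (0.85, SE 0.12) and Ppib (0.81, SE 0.10), and Fkbp9 fell (-0.26, SE 0.054), each as a log2 fold change (list median 0.17).

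Of 23 genes of ER-associated degradation, which removes proteins that fail to fold, 12 rose and 2 fell (median 0.42). Derl1, a channel subunit for their export, went from 87.3 ± 3.35 to 239 ± 15.7 CPM (log2 fold change 1.45, SE 0.071), close in size to Hspa5, and the ubiquitin ligase Rnf139 fell, with a log2 fold change of -0.62 (SE 0.096). Derl3, a relative of Derl1, passed the test with 1 to 3 counts per control library, at 0.142 ± 0.0878 and 0.965 ± 0.532 CPM. Of 11 unfolded protein response transducers and factors, the genes that act upstream of the members, 7 rose and 1 fell (median 0.59). Ddit3 (CHOP) went from 10.5 ± 0.33 to 64.8 ± 13.9 CPM (log2 fold change 2.62, SE 0.15) and Ern1 (IRE1), an ER stress sensor, from 9.78 ± 1.496 to 51.3 ± 7.49 CPM (log2 fold change 2.39, SE 0.14), both near Ero1l in size. Mbtps2, a protease that activates ATF6, rose by less (0.56, SE 0.079), and Creb3l2 fell (-0.78, SE 0.10). Of 20 genes of ER entry and N-glycosylation 6 rose and 1 fell (median 0.25). Sec61a1, the channel through which chains enter the ER, went from 23.4 ± 1.84 to 41.5 ± 0.67 CPM (log2 fold change 0.83, SE 0.070), Ddost (0.74, SE 0.059) and Spcs2 (0.28, SE 0.069) rose as well, and the paralog Sec61a2 fell from 47.0 ± 4.75 to 27.1 ± 3.99 CPM (log2 fold change -0.79, SE 0.12).

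The sarcoplasmic reticulum list went mostly down, with 2 of 10 genes rising and 8 falling (median -0.86). The slow and cardiac forms rose, Casq2 from 23.1 ± 7.37 to 157 ± 38.5 CPM (log2 fold change 2.76, SE 0.24) and Atp2a2 with a log2 fold change of 1.95 (SE 0.22), and the fast-fibre forms fell, Casq1 with -1.78 (SE 0.16) and Atp2a1 with -1.39 (SE 0.19). Of 8 Hsp70 and Hsp90 genes of other compartments 2 rose, Hspa2 and Hspa9, and 4 fell (median -0.21), or 2 without control 2, control 3 or knockout 4. The heat-inducible Hspa1a fell from 31.7 ± 10.9 to 3.09 ± 1.16 CPM (log2 fold change -3.36, SE 0.34), with the lowest control library at 15.5 CPM, and Hspa1b fell as well (-2.62, SE 0.41).

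The muscle held other cells than myofibres, and in whole tissue fewer cells of a type and less RNA per cell cannot be told apart. Summed CPM of 14 myofibre markers was 249954 to 318477 in the control libraries and 91518 to 125371 in the others, with 2 rising and 10 falling. Of 10 fibroblast markers 6 fell (summed 1875 to 2772 against 730 to 1134 CPM), of 10 endothelial markers 6 fell (432 to 618 against 339 to 369 CPM), and of 8 smooth muscle and pericyte markers 4 fell (738 to 1015 against 576 to 631 CPM), with none of these 3 lists holding a gene that rose. Of 10 macrophage markers 1 rose, Cd68, and the sums overlapped (87.6 to 228 against 183 to 343 CPM). Of 7 satellite cell markers 3 rose and 2 fell (63.8 to 72.6 against 79.3 to 111 CPM). No adipocyte marker of 8 passed the test (254 to 1786 against 779 to 2952 CPM), with control 3 and knockout 3 the lowest of their groups. Plasma cells, which are rich in ER, left little trace: 2 of 8 B and plasma cell markers were in the table, Mzb1 and Jchain, summing to 1.29 to 1.72 CPM in the control libraries and to 1.47 to 2.82 CPM in the others. Of 7 neutrophil markers 3 were in the table and S100a8 rose (sum 0.458 to 4.201 against 17.3 to 37.8 CPM), and of 7 T cell markers 2 were, of which Cd3e fell (0.441 to 2.004 against 0.459 to 0.994 CPM). The part of these cell types in the members' changes was not tested.

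In the annotation of GRCm38, exons on the opposite strand overlap those of Hsp90b1 (1810014B01Rik), Pdia3 (Catsper2), Pdia6 (Atp6v1c2) and Dnajb9 (Mir5627). Whether the counting used the strand is not given in the sources used here, so reads from such stretches cannot be told apart. On the same strand, exons of Gm15344 and Gm25745 overlap those of Hsp90b1, and Mir704 overlaps Pdia4, and there the strand does not separate the reads. Calr also has a pseudogene, Calr-ps, and since the authors left out reads that map to several places, reads the 2 share would be missing from its count.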

How the data were processed

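RNA was sequenced from QF of 4 Grpel1 skm-/- and 4 Grpel1 flox/flox mice, as polyA libraries from a directional kit. Per the submitters' processing notes and the study's methods, reads were split with bcl2fastq 2.20.0.422, trimmed with cutadapt, aligned to GRCm38 with STAR 2.5.4b, counted with Rsubread after duplicates, chimeric reads, poorly mapped reads and those with several positions were dropped, and tested with DESeq2 1.32.0. The annotation release is not given in the sources used here. For 14012 genes with over 50 reads in all, the authors deposited unnormalized counts, FPKM and the summed exon width. Genome positions and names were taken as deposited. The deposited FPKM were read only to check the scaling, and columns with the authors' own fold changes and p-values were not used.

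Groups and replicate numbers came from the sample labels, and each library is from its own animal. The counts were tested with edgeR 4.0.16 (quasi-likelihood, TMM, R 4.3.3) on all genes, with Benjamini-Hochberg adjustment and a threshold of 0.01. CPM and RPKM used TMM-scaled library sizes, and log2 ratios within libraries a prior count of 2. Single values were compared by two-sided exact permutation over all 70 assignments of libraries, so p cannot go below 0.0286. Genes were named by fixed rules: all 10 members, their listed relatives, and, per list of related genes, up to 2 called genes with the largest and up to 2 with the lowest log2 fold change. A gene that this rule names is not reported here. The members and lists were chosen with earlier results of these data known. Alternatives were other scalings and filters, DESeq2 1.42.0, a replicate block and leaving out each library.

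Depth was 16017565 to 20361144 counts per library. Replicates of a group differed by 17.2 to 42.7 times the counting noise (chi-square per degree of freedom). This was taken over the whole table, where abundant genes weigh most. For those genes the spread between animals and not depth sets the precision. The measure does not give the part of counting noise for genes with fewer reads. The same-numbered libraries of the groups did not deviate together throughout (correlations 0.213, 0.0351, 0.512 and 0.163), so the numbers were not taken as pairs.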

Additional observations from a re-analysis of the deposited data

Results flagged for a closer look

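Pdia4 in knockout 3, at 20.6 CPM, lay far from the other 3 libraries labelled knockout, which were at 26.1 to 27.2 CPM. Its gap to the nearest of them was 0.834 of the group's range, past Dixon's 95% critical value for 4 samples. This was 1 of 60 groups of values examined, where chance gives about 1 in 20.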

How the results depend on the processing

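The count of 9 members higher and 0 lower was the same under the other scalings and filters, DESeq2, a threshold of 0.05, the replicate block and each left-out library, with library totals alone the exception, and over these alternatives the 9 kept an adjusted p of at most 0.0032 (Calr). Scaling by library totals alone shifted the median over all genes from 0.065 to 0.73 (log2) and called 8498 genes higher and 873 lower. Under it Pdia4 passed (log2 fold change 0.89, adjusted p = 1.2e-04), against 0.072 as reported and up to 0.22 elsewhere, and levels per length in the libraries labelled knockout over control were 4.03 for Hspa5, 2.11 for Hsp90b1, 2.09 for Calr, 3.91 for Canx, 2.35 for Pdia3, 1.86 for Pdia4, 2.21 for Pdia6, 2.90 for Dnajb9, 4.14 for Sdf2l1 and 8.03 for Ero1l. In that scaling the numbers higher and lower were 11 and 0 for BiP cofactors, 17 and 0 for other thioredoxin-fold proteins, 5 and 0 for prolyl isomerases, 2 and 2 for collagen folding, 22 and 0 for ER-associated degradation, 19 and 0 for ER entry, and 5 and 2 for other Hsp70 and Hsp90 genes, with 3 lower in the sarcoplasmic reticulum list and 0 lower for glycan trimming and unfolded protein response transducers. The ER entry list had 11 higher with upper-quartile factors and 12 at a threshold of 0.05, and glycan trimming and prolyl isomerases each had 2 lower in DESeq2 and at 0.05. Leaving out single libraries gave 6 to 10 higher and 2 to 4 lower thioredoxin-fold proteins, 1 to 2 lower in glycan trimming and 2 to 4 lower among other Hsp70 and Hsp90 genes. It also turned the sign of 3 log2 ratios whose groups overlapped, which ranged from -0.034 to 0.10 for Sdf2l1 over Hspa5, -0.013 to 0.075 for Hspa5 over Canx and -0.045 to 0.043 for Hsp90b1 over Calr. Of the ratio tests with a library left out, 20 missed 0.05, all of them ratios of Dnajb9, and 5 passed anew. With fewer assignments of libraries p moves in coarse steps, and the differences of these 20 stayed at 0.35 to 0.68, against 0.36 to 0.65 with all libraries. With the replicate number as a block, 3215 genes were higher and 2908 lower, the members' counts were 9 and 0, and Pdia4 had a log2 fold change of 0.22 (adjusted p = 0.049); the numbers mark no shared animal, and 3 of 4 libraries labelled knockout correlated best with their own number. Depth limits Sdf2l1 and Ero1l most, with 42 to 99 counts per control library. The cause of these shifts was not tested.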

Other observations

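Genes outside the 10 whose promoter held the ERSE could also be read in this table. Of 14 such genes, 6 rose and 1 fell (median log2 fold change 0.60). Over all genes 23.6% rose and 21.1% fell, with a median of 0.065. The counts of the 14 describe and do not test them. Creld2, an ER protein with a known response to ER stress, rose with a log2 fold change of 0.79 (SE 0.11, adjusted p = 1.6e-04) and Hnrnpa3, a nuclear RNA-binding protein, with 0.81 (SE 0.062, adjusted p = 3.4e-06). The other 4 that rose, Xlr3b, Tdrd9, Derl3 and Calr4, had 4 counts or fewer in each control library. Acacb, an acetyl-CoA carboxylase, fell (-0.62, SE 0.14, adjusted p = 0.0035). Dnajc3, a BiP cofactor with the element, had a log2 fold change of -0.02 (SE 0.075, adjusted p = 0.80).

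Outside the 10 genes, those most like Hspa5 over the 8 libraries, by the root mean square difference of log2 CPM after centring on the control mean among 8034 genes, were Shmt2 (0.080), Zfp318 (0.084), Zw10 (0.085), Rpl19 (0.092) and Thyn1 (0.092). With values centred on the control mean, the measure takes in the group difference and does not show variation together within a group. The log2 fold changes of these genes were 1.34, 1.37, 1.26, 1.28 and 1.43 in the same order, beside 1.34 for Hspa5. Canx stood at 0.082 on this measure and Sdf2l1 at 0.13. Shmt2 encodes a mitochondrial enzyme of folate metabolism and Rpl19 a ribosomal protein.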
